A study of Mus musculus with 38 samples.

Results

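Axin2, Sp5, Notum, Lef1, Tcf7, Nkd1, Lgr5, Rnf43, Znrf3 and Dkk1 are feedback regulators and transcriptional targets of canonical WNT signalling. The set is a list of names with no threshold on a measured value, though it was drawn up with earlier results of these data known, and the 10 symbols each matched 1 of the 29267 genes in the expression tables. Their transcripts were followed by RNA-seq in mouse pluripotent cells as these were moved, with or without inhibition of JNK and with or without the transcription factor c-Jun, between primed and naive pluripotency. The series holds 38 libraries in 18 groups.

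The groups were as follows. The naive end points were 2 libraries of kiPSCs, the induced pluripotent cells derived from kEpiSCs, and 5 libraries of embryonic stem cells (ESCs), of which replicates 1 and 2 carry the strain label CBA/CaJ X C57BL/6J and the others none. The ESCs were kept in 2i plus LIF, and 2i includes CHIR99021, an inhibitor of GSK3 that itself turns WNT signalling on. The primed cells were 4 libraries of epiblast stem cells (EpiSCs), kept in Activin A and bFGF, and 2 of kEpiSCs, a stable EpiSC line that carries a Klf4 transgene. kEpiSCs placed in the medium iCD1, whose makeup is not given in the sources used here, were sampled as 2 libraries each on day 1, day 2 and day 3. Parallel cultures in iCD1 with the JNK inhibitor SP600125 (JNKi) gave 2, 3 and 2 libraries on the same days. Primed EpiSC-like cells were also made from c-Jun knockout (JunKO) and wild-type (WT) ESCs, a step that used the tankyrase inhibitors XAV939 and IWR, which lower WNT signalling. These were sequenced as 1 iEpiSC and 1 kiEpiSC library per genotype, the kiEpiSC libraries being labelled as reprogramming cells with no day. By the naming of kEpiSCs the k may stand for the Klf4 transgene, but the study's text does not define kiEpiSC. kiEpiSCs of each genotype then gave 2 libraries in iCD1 and 2 in iCD1 with JNKi, all on day 3. In the knockout, paired guide RNAs removed the single exon of c-Jun. The study calls the replicates behind some of its RNA-seq displays biological, but the labels do not say for each group that replicates were separate cultures, so the p-values given here cover library-to-library spread, which may be technical.

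In canonical WNT signalling a WNT ligand binds Frizzled and LRP receptors, the complex that destroys β-catenin is held back, and β-catenin enters the nucleus and acts with TCF and LEF factors on target genes. Many of those targets feed back on the pathway. Axin2 is a scaffold of the destruction complex and is widely used as a readout of the pathway, and Nkd1 binds Dishevelled. Notum, a secreted enzyme, removes the lipid from WNT ligands, and Dkk1, also secreted, blocks the LRP receptors. Sp5 is a transcription factor, and Lef1 and Tcf7 are themselves TCF/LEF factors. Rnf43 and Znrf3 are membrane ubiquitin ligases that clear Frizzled from the cell surface, and Lgr5, a receptor for R-spondins, helps to hold these ligases back. In pluripotent cells the same pathway is known both for keeping naive cells and, in primed cells, for driving them towards the primitive streak.

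By the GENCODE M21 annotation of the mm10 assembly, 5 of the genes lie on chromosome 11. Axin2 spans chr11:108920349-108950783 on the forward strand, Rnf43 chr11:87662722-87735539 on the forward strand, and Notum chr11:120653788-120661175, Tcf7 chr11:52252371-52283014 and Znrf3 chr11:5276324-5444847 lie on the reverse strand. Sp5 is at chr2:70474923-70477729, Lef1 at chr3:131110471-131224356 and Nkd1 at chr8:88521354-88594884, all on the forward strand. Lgr5 is at chr10:115450311-115587780 and Dkk1 at chr19:30545863-30549665, both on the reverse strand.

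Promoter sequence was read for 7 of the 10 genes (Axin2, Sp5, Lef1, Tcf7, Nkd1, Rnf43 and Dkk1) as 12 RefSeq windows of 300 bases on GRCm38.p6, each covering 250 bases before and 50 after an annotated start. Windows were searched on both strands for the TCF/LEF letters CTTTG followed by AA, AT, TA or TT, 4 endings of which a position can match only 1. A match lay in 3 of the 12 windows, 1 each of Sp5, Dkk1 and Lef1, and 16.9% of all 32851 mouse windows of this length hold at least 1. Sp5 and Dkk1 each hold 2 matches, and 1.94% of all windows hold 2 or more. The AP-1 letters TGACTCA and TGAGTCA, the known binding motif of c-Jun and its partners, were in 0 of the 12 windows and in 5.2% of all windows. The windows of Sp5 and Dkk1 are shown because they carry 2 matches each and belong to genes with different courses after the change to iCD1, and that of Axin2 because its course was closest to that of Sp5 although its window holds no match. Capitals mark the TCF/LEF letters, and the sequences run 5′ to 3′ along the gene's own strand.
Sp5, chr2:70474673-70474972, forward strand: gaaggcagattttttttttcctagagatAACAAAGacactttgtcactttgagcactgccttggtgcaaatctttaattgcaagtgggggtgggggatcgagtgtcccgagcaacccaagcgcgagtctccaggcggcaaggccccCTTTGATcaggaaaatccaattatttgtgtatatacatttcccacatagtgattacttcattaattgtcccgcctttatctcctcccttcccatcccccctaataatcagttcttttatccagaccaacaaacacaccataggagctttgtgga
Dkk1, chr19:30549447-30549746, reverse strand: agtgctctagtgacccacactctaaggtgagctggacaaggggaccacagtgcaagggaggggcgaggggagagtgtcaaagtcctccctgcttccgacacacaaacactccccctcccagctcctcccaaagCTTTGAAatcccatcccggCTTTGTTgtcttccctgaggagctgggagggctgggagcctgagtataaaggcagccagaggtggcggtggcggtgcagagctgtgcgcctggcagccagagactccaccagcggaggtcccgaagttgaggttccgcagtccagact
Axin2, chr11:108920099-108920398, forward strand: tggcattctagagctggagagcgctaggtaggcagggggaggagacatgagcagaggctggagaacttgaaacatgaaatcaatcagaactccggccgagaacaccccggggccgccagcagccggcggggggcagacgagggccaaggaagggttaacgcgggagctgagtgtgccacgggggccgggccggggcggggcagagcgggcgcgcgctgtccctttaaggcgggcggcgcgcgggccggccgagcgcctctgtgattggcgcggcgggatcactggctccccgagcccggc
In Sp5 the first bases of the matches lie at position -222 (CTTTGTT, on the opposite strand) and -104 (CTTTGAT), counted from the start. In Dkk1 they lie at -117 (CTTTGAA) and -98 (CTTTGTT). A match is only a run of letters and no measure of binding.

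Libraries held between 2.165 M and 15.945 M expected counts assigned to genes. Jun lay between 5.01 and 14.6 TPM (a transcript level corrected for gene length and for library depth) in the 6 JunKO libraries, below the 40.4 to 240 TPM of the 6 WT libraries. Klf4 lay between 65.2 and 103 TPM in kEpiSCs, against 0.52 to 1.94 TPM in EpiSCs. In iEpiSCs it was at 36.3 (JunKO) and 36.6 TPM (WT), against 40.1 and 62.6 TPM in kiEpiSCs. Klf4 thus did not set these lines clearly apart. EpiSC replicate 1 stood apart from the other EpiSC libraries, with 1032 TPM summed over 7 primitive streak and mesendoderm markers (T, Mixl1, Eomes, Gsc, Foxa2, Tbx6 and Msgn1) against 44.9 to 115 TPM in replicates 2 to 4. In ESC replicates 1 to 4 the gap between gene length and effective length, which reflects read or fragment length, was 73.5 bases, against 133 to 192 bases in all other libraries. For ESCs against EpiSCs the number of the 10 genes called and the differences of Axin2 and Sp5 are therefore also given with replicate 5 alone. All 10 genes passed the filter on low counts in every fit. In the c-Jun experiment Dkk1 did so only through the 2 JunKO libraries with JNKi, where it was highest. Notum overlaps the antisense gene Notumos, which held 13.5 to 27.9% of their summed count in the 28 libraries with at least 30 Notum counts. Whether counting used strand is not given in the sources used here, so reads of the pair cannot be told apart with certainty and every Notum value is uncertain to that extent. In these bulk samples, fewer cells of a type and less RNA per cell cannot be told apart.

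The first comparison was of kEpiSCs after 1 day in iCD1 with kEpiSCs before the change of medium. Most of the set rose at once. Of the 10 genes 8 rose and 1, Lgr5, fell (edgeR's quasi-likelihood test, Benjamini-Hochberg adjusted p under 0.05), against 46.3% of the 14892 genes tested that changed, 23.2% upward and 23.1% downward. Dkk1 was not called.

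Axin2 was at 170 and 152 TPM on day 1, against 6.21 and 6.03 TPM in kEpiSCs, a log2 fold change of 4.52 ± 0.423 (SE, adjusted p = 5.625e-07, edgeR). Nkd1, the Dishevelled-binding inhibitor, stood at 48.4 and 44.8 TPM, against 3.43 and 2.64 TPM (log2 fold change 3.81 ± 0.242, adjusted p = 1.012e-08). For neither gene did the groups overlap, and replicates lay much closer to each other than to the other group. Notum was all but silent before the change of medium, with 95.4 and 105 TPM on day 1 against 0.28 and 0.55 TPM in kEpiSCs. Its log2 fold change of 7.89 ± 0.451 (adjusted p = 3.938e-09) was the largest among the 10 genes. Dkk1, the other secreted inhibitor, did not follow: it was at 6.27 and 5.75 TPM on day 1 against 8.97 and 5.23 TPM in kEpiSCs, and these ranges overlap.

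Sp5 reached the highest level of the set, with 375 and 382 TPM on day 1 against 9.43 and 6.56 TPM in kEpiSCs (log2 fold change 5.44 ± 0.436, adjusted p = 1.13e-07). The TCF/LEF factors started from higher levels and rose by less. Lef1 was at 82.2 and 82.4 TPM, against 26.1 and 22.5 TPM (log2 fold change 1.65 ± 0.343, adjusted p = 0.001067). Tcf7 was at 118 and 112 TPM, against 63.3 and 65.2 TPM (log2 fold change 0.74 ± 0.128, adjusted p = 0.0002448). The smallest of the 8 increases was thus that of Tcf7, whose replicates nonetheless stayed well apart between groups.

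Both ubiquitin ligases rose. Rnf43 was at 11.6 and 8.32 TPM on day 1, against 3.35 and 4.38 TPM in kEpiSCs (log2 fold change 1.51 ± 0.421, adjusted p = 0.008088). Znrf3 was at 18.4 and 16.9 TPM, against 6.56 and 5.24 TPM (log2 fold change 1.54 ± 0.153, adjusted p = 1.047e-06). Lgr5 went the other way, with 0.87 and 0.55 TPM on day 1 against 2.83 and 2.52 TPM in kEpiSCs (log2 fold change -2.34 ± 0.582, adjusted p = 0.003928). Its day 1 level was low in both libraries, so the fall rests on few reads.

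Genes of the primitive streak moved with this change. The 7 markers summed to 2453 to 2589 TPM on day 1, against 81.4 to 102 TPM in kEpiSCs, and their part in the rise of the WNT targets was not tested. The brachyury gene T, a known WNT target, made up most of that sum, at 1984 to 2110 TPM on day 1 against 43.1 to 51.6 TPM in kEpiSCs. Primed markers moved as well, their 6 genes summing to 316 to 326 TPM on day 1 against 715 to 775 TPM in kEpiSCs, and the shared markers Pou5f1 and Sox2 to 869 to 889 TPM, against 2049 to 2093 TPM. The 8 naive markers summed to 41.3 and 39.3 TPM on day 1, against 134.3 and 94.95 TPM in kEpiSCs. On no day without JNKi did they exceed 90.6 TPM.

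**Figure D1:**
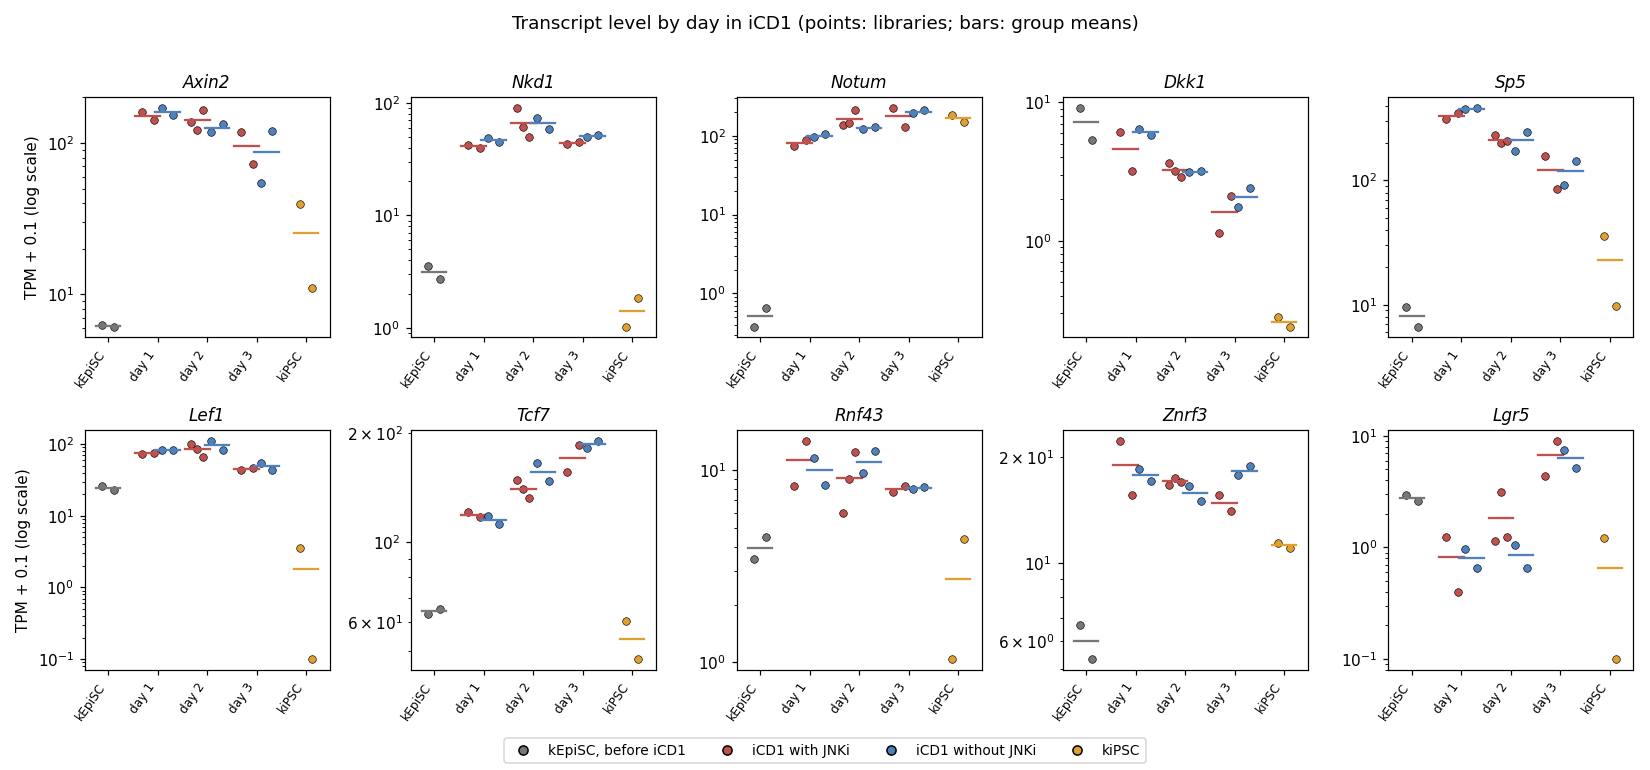
Level of each of the 10 genes (TPM + 0.1, log axis) in kEpiSCs, on days 1, 2 and 3 in iCD1 with JNKi and without JNKi, and in kiPSCs. Points are libraries and bars are group means. Axin2 and Sp5 are highest on day 1, Notum is at most 0.55 TPM in kEpiSCs and at least 95.4 TPM from day 1 on without JNKi, and none of these genes was called between the libraries with and without JNKi on any day, although several sets do not overlap, such as Sp5 on day 1.

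Between day 1 and day 3 the set split. On day 3, 4 of the 10 genes were lower than on day 1 (Axin2, Sp5, Rnf43 and Dkk1) and 3 were higher (Notum, Tcf7 and Lgr5), against 28.2% of all genes tested, 14.6% lower and 13.6% higher. Axin2 was at 54.5 and 119 TPM on day 3, with 119 and 133 TPM on day 2 between it and the day 1 libraries (day 3 over day 1, log2 fold change -1.07 ± 0.362, adjusted p = 0.03812). Sp5 was at 174 and 247 TPM on day 2 and at 92.1 and 144 TPM on day 3 (log2 fold change -1.80 ± 0.363, adjusted p = 0.001544). The day 3 replicates of both genes lay far apart, yet all were below both day 1 libraries. Dkk1 stepped down from day to day, with 3.04 and 3.07 TPM on day 2 and 1.66 and 2.31 TPM on day 3 (log2 fold change -1.72 ± 0.398, adjusted p = 0.004074). Rnf43 was at 7.91 and 8.14 TPM on day 3 and only just passed (log2 fold change -1.22 ± 0.440, adjusted p = 0.04966). This call was lost in 7 of 11 alternatives, and limma on log2(TPM + 1) gave a difference of -0.26.

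Notum continued upward, through 123 and 128 TPM on day 2 to 194 and 209.8 TPM on day 3 (log2 fold change 0.97 ± 0.257, adjusted p = 0.0101). Tcf7 was at 165 and 147 TPM on day 2 and at 181 and 190.2 TPM on day 3 (log2 fold change 0.57 ± 0.128, adjusted p = 0.003391). Lgr5 remained low on day 2, at 0.96 and 0.55 TPM, and was at 7.4 and 5.08 TPM on day 3 (log2 fold change 3.54 ± 0.586, adjusted p = 0.000302). The increase of Lgr5 thus came after the increases of the other genes, and on day 3 both its libraries exceeded both kEpiSC libraries. Lef1 and Nkd1 peaked in their means on day 2, Lef1 at 111 and 82.0 TPM and Nkd1 at 73.1 and 58.6 TPM. Lef1 was at 53.7 and 44.1 TPM on day 3 and was not called against day 1 (log2 fold change -0.83, adjusted p = 0.08419). Nkd1, at 49.3 and 52.0 TPM on day 3, and Znrf3, between 14.9 and 18.7 TPM on all 3 days, were not called either. The day 3 calls were the least firm of this course, since leaving out either day 1 library or day 3 replicate 1 gave 4 in place of 7, leaving out day 3 replicate 2 gave 5, and a fit over all 38 libraries gave 1. Calls over all genes fell too, to between 2453 and 2988 under these settings in place of 4197. Pluripotency markers moved over the same days, the shared markers Pou5f1 and Sox2 summing to 869 to 889 TPM on day 1 and 76.8 to 77.5 TPM on day 3, and the primed markers to 316 to 326 TPM and 78.7 to 89.9 TPM. Their part in these changes was not tested.

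The kiPSCs were then set against day 3 cells, to see what naive cells kept of this pattern. All of the set but Notum was lower in kiPSCs, that is 9 of 10 genes, against 57.9% of all genes tested that changed, 28.6% lower and 29.3% higher. Nkd1 was at 0.93 and 1.73 TPM in kiPSCs, far below its day 3 libraries (log2 fold change -5.22 ± 0.299, adjusted p = 1.175e-09). Lef1 was at 3.45 TPM in one kiPSC library and was listed at 0 in the other (log2 fold change -4.45 ± 0.471, adjusted p = 8.94e-07). Lgr5 likewise was at 1.11 TPM and at 0 (log2 fold change -4.95 ± 0.690, adjusted p = 1.652e-05). Dkk1 was close to absent, with 3 counts over both kiPSC libraries against 27 over both day 3 libraries, a ratio of 0.0937 with a 95% interval of 0.0182 to 0.305 that covers counting error only (adjusted p = 0.0004097, edgeR).

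The other falls were smaller. Sp5 was at 35.8 and 9.65 TPM (log2 fold change -2.18 ± 0.395, adjusted p = 0.0002087) and Axin2 at 39.5 and 10.9 TPM (log2 fold change -1.40 ± 0.380, adjusted p = 0.004902). In both genes replicate 1 was well above replicate 2. Tcf7 was at 60.4 and 47.4 TPM (log2 fold change -1.62 ± 0.133, adjusted p = 5.575e-08), close to where kEpiSCs had started. Rnf43 was at 0.94 and 4.29 TPM (log2 fold change -1.59 ± 0.526, adjusted p = 0.01658) and Znrf3 at 11.3 and 10.95 TPM (log2 fold change -0.65 ± 0.156, adjusted p = 0.00199). Notum stayed high instead, at 181 and 152 TPM, and was not called. The day 3 comparisons and the day 1 comparison share libraries and are not independent of each other.

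**Figure D2:**
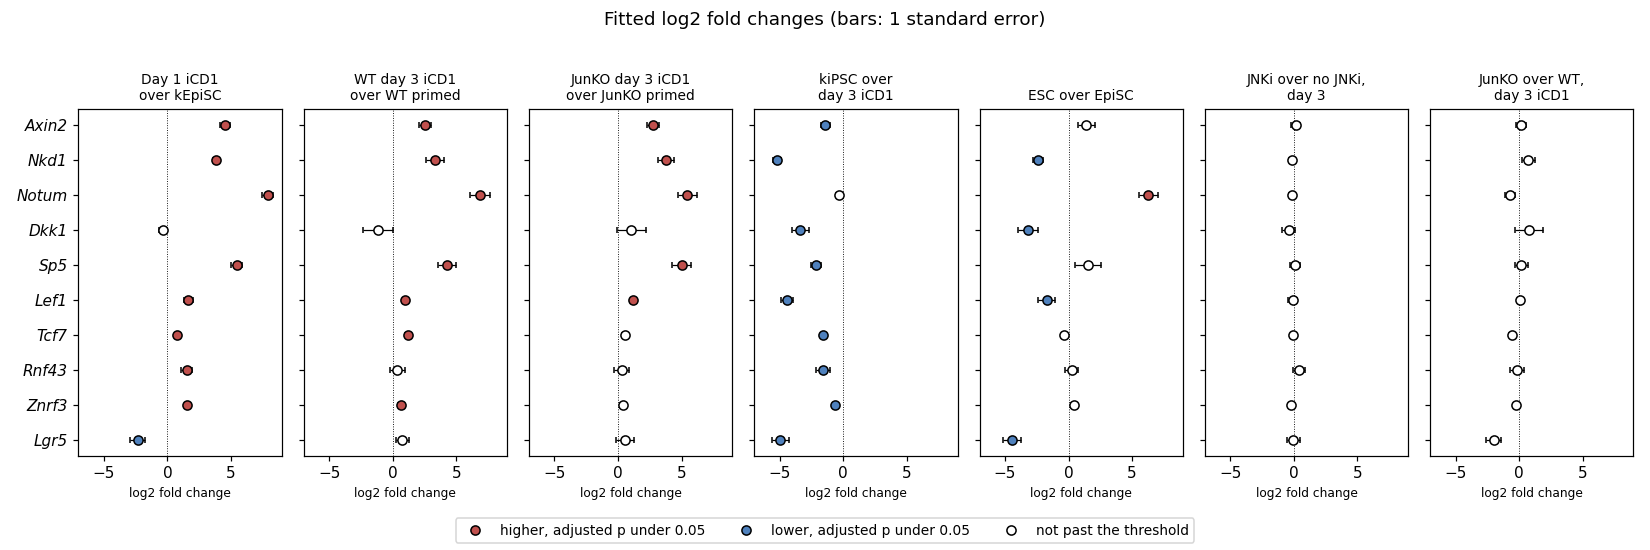
Log2 fold change of each gene (point) with 1 standard error on either side (bar) in 7 comparisons, the first-named group over the second. Nkd1, Notum, Sp5 and Axin2 carry the largest positive values in cells moved to iCD1, and every gene is below 0 in kiPSCs over day 3 cells.

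With JNK inhibited, no gene of the set was called on any day. The numbers of these genes called with JNKi against no JNKi were 0 of 10 on day 1, day 2 and day 3, where 0%, 0.00672% and 0% of the 14892 genes tested were called by edgeR. At an unadjusted p under 0.05 the set again gave 0 on each day, whereas 271, 430 and 498 genes of the whole table passed, and DESeq2 called 0, 1 and 3 genes and limma 0, 2 and 0. Axin2 was at 159 and 143 TPM with JNKi on day 1, against 170 and 152 TPM without it. Sp5 was at 312 and 350 TPM with JNKi, against 375 and 382 TPM without it. The libraries of Axin2 overlap between the groups that day and those of Sp5 do not, although its difference failed the test. Lef1 was at 73.5 and 75.1 TPM with JNKi on day 1, against 82.2 and 82.4 TPM without it. Nkd1 was at 41.9 and 39.6 TPM with JNKi, against 48.4 and 44.8 TPM without it. Neither overlapped, and neither was called. With 2 libraries on each side, such gaps often arise without any difference, and their share over all genes was not counted. Notum on day 1 was at 74.4 and 89.5 TPM with JNKi, against 95.4 and 105 TPM without it. On day 2 it was at 138, 144 and 211 TPM with JNKi, against 123 and 128 TPM without it, and on day 3 at 224 and 128 TPM, against 194 and 209.8 TPM. Notum thus lay below on day 1, above on day 2 and on both sides on day 3, and was called on none. Nkd1 on day 3 was at 43.1 and 44.6 TPM with JNKi, against 49.3 and 52.0 TPM without it, and Znrf3 at 15.5 and 13.9 TPM, against 17.7 and 18.7 TPM, again apart and not called. On day 2, where JNKi has 3 libraries, Axin2 was at 138, 122 and 165 TPM with JNKi, against 119 and 133 TPM without it. Nkd1 was at 89.3, 60.5 and 49.6 TPM with JNKi that day, against 73.1 and 58.6 TPM without it, and Lgr5 at 1.03, 3.02 and 1.13 TPM, against 0.96 and 0.55 TPM. The fitted differences over the 10 genes ran between -0.44 and 0.04 on day 1, between -0.19 and 0.43 on day 2 and between -0.40 and 0.43 on day 3 on the log2 scale. With standard errors of 0.128 to 0.737 on day 1, differences of moderate size in the low genes, such as Lgr5, were not detectable at this depth. The JNKi effect on day 3 minus that on day 1 was tested as a difference of its own, with 0 of 10 genes and 0% of all genes called (0 of 10 and 339 of all 14892 at an unadjusted p under 0.05, and 1 gene of the table by DESeq2).

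Among the established lines, ESCs were compared with EpiSCs. The set did not move as one between naive and primed cells. Notum was higher in ESCs, and Lef1, Nkd1, Lgr5 and Dkk1 were lower, so that 5 of 10 genes were called where 50.9% of 13923 genes were, 27.1% higher and 23.8% lower. The share among the 10 genes is thus near that of all genes.

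Notum was at 175, 111, 29.5, 195 and 53.9 TPM in ESCs, against 3.01, 2.33, 0 and 1.74 TPM in EpiSCs. The groups did not overlap (log2 fold change 6.29 ± 0.717, adjusted p = 1.379e-05). Nkd1 was at 2.17, 0.95, 1.46, 1.08 and 0.46 TPM in ESCs, against 7.57, 4.93, 4.85 and 6.48 TPM in EpiSCs (log2 fold change -2.38 ± 0.401, adjusted p = 0.0003098). Here too every ESC library was below every EpiSC library. Lef1 was at 21.2, 2.88, 6.69, 10.9 and 1.72 TPM in ESCs, against 32.7, 22.2, 23.5 and 26.8 TPM in EpiSCs (log2 fold change -1.73 ± 0.669, adjusted p = 0.04467). Lef1 was just past the threshold and lost its call in 9 of 18 alternatives. Lgr5 was at 0.88, 0, 0.09, 0.22 and 0.18 TPM in ESCs, against 6.54, 1.54, 5.29 and 1.87 TPM in EpiSCs (log2 fold change -4.44 ± 0.680, adjusted p = 0.0001512). Dkk1 was at 0.56, 0, 0.53, 0.24 and 0.28 TPM in ESCs, against 3.99, 0.85, 6.43 and 0.58 TPM in EpiSCs (log2 fold change -3.19 ± 0.758, adjusted p = 0.003394). The lowest EpiSC libraries of Dkk1 came near the highest ESC ones without overlapping them.

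Axin2, a common readout of the pathway, and Sp5 varied widely between libraries of the same group. Axin2 was at 101, 32.7, 26.5, 106 and 8.46 TPM in ESCs, against 45.0, 8.0, 11.95 and 13.2 TPM in EpiSCs, and was not called (log2 fold change 1.40, adjusted p = 0.1054). Sp5 was at 101, 26.2, 1.63, 91.9 and 10.1 TPM in ESCs, against 45.5, 2.0, 5.23 and 8.19 TPM in EpiSCs (log2 fold change 1.53, adjusted p = 0.2246). For both genes the highest EpiSC library was replicate 1, in which the primitive streak markers were also high, and their part in this was not tested. Without EpiSC replicate 1, Axin2 was called at 2.43 (adjusted p = 0.01104), Sp5 at 3.24 (adjusted p = 0.02709) and Znrf3 at 0.54 (adjusted p = 0.04898), while Lef1 was no longer called (adjusted p = 0.09887), which made 7 of 10, where 7151 of all 13858 genes were called. With ESC replicate 5 as the only ESC library, the one whose length gap resembled that of the other groups, the fitted differences of Axin2 and Sp5 were -0.75 and -0.66 and 4 of 10 genes were called, as were 4957 of 14739 in all. That library stood apart in another way, with 471 TPM summed over 7 fibroblast and feeder markers, against 5.05 to 40.1 TPM in the other ESC libraries, and their part in the result was not tested. The direction for Axin2 and Sp5 between ESCs and EpiSCs therefore differed with the ESC libraries used. Tcf7 was at 53.6 to 76.6 TPM in ESCs, against 53.4 to 96.2 TPM in EpiSCs, and Rnf43 at 1.39 to 3.8 TPM, against 1.47 to 3.26 TPM, with wide overlap.

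For kEpiSCs against EpiSCs 0 of 10 genes were called, against 1.26% of all genes, with fitted differences between -1.78 and 1.32 and standard errors of up to 1.3 on the log2 scale. Axin2 was at 6.21 and 6.03 TPM in kEpiSCs, below all 4 EpiSC libraries, and Dkk1 at 8.97 and 5.23 TPM overlapped them. kiPSCs against ESCs likewise gave 0 of 10, against 0.144% of all genes. In both kinds of naive cell Notum was at 29.5 TPM or more while Lgr5 and Dkk1 were at 1.11 TPM or less, and each kiPSC level of Axin2 and Sp5 lay within the range of the ESC libraries.

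**Figure D3:**
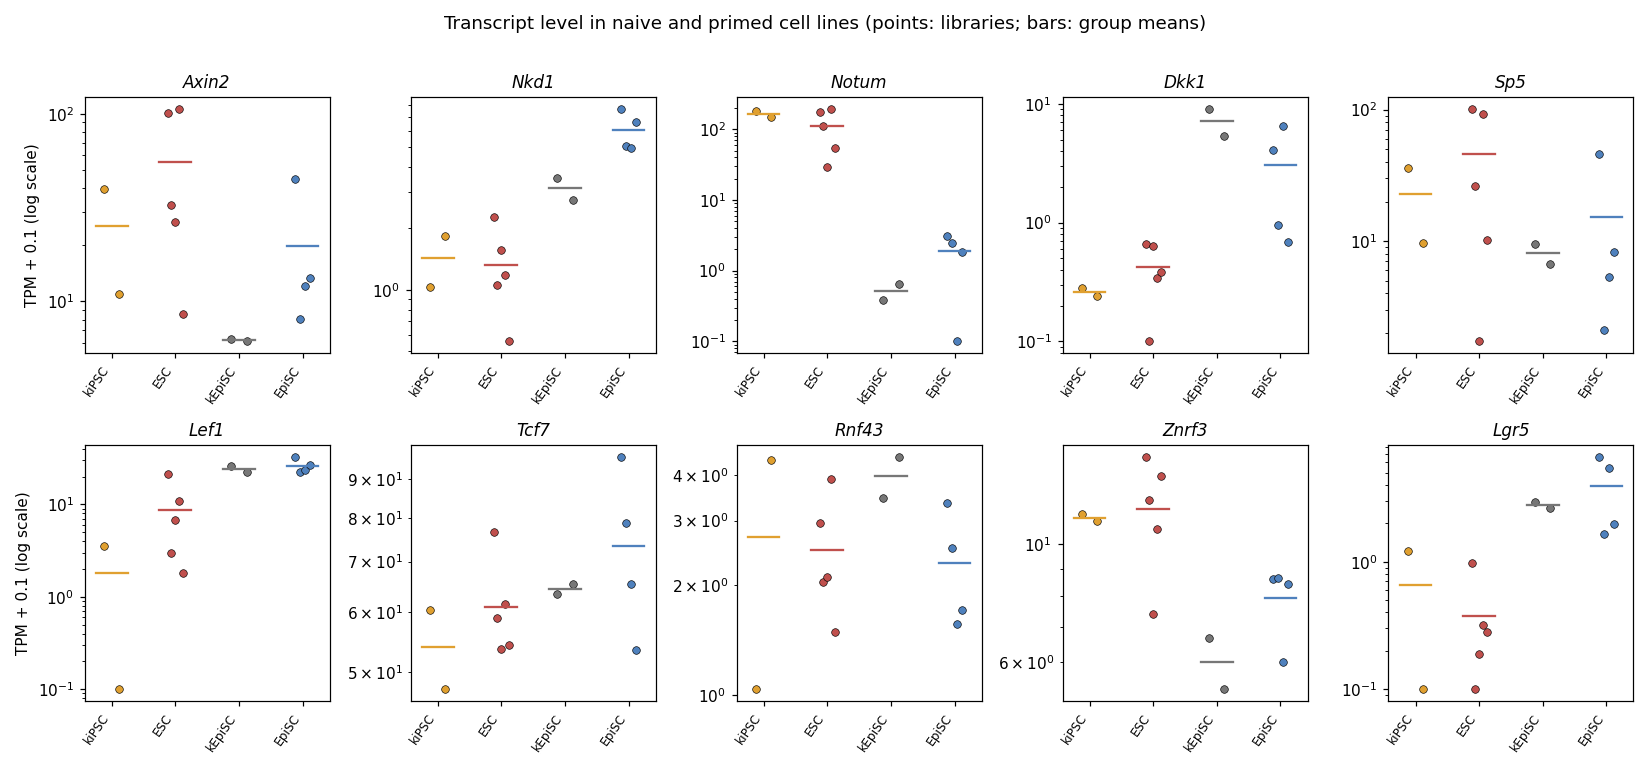
Level of each gene (TPM + 0.1, log axis, scaled per panel) in kiPSCs, ESCs, kEpiSCs and EpiSCs. Points are libraries and bars are group means. Notum is at or above 29.5 TPM in every naive library and at or below 3.01 TPM in every primed one, and the Axin2 and Sp5 libraries of ESCs and EpiSCs overlap.

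In the c-Jun experiment the set was first compared between cells after 3 days in iCD1 and primed cells of the same genotype. In the fit the primed level is the mean of the iEpiSC and the kiEpiSC library, 1 of each, while TPM are given per library. The day 3 libraries all come from kiEpiSCs, so a difference between the primed lines enters these fold changes in part. In WT cells 7 of 10 genes rose and 0 fell, against 32.1% of the 12613 genes tested that changed, 16.1% upward and 16.1% downward. In JunKO cells 5 of 10 rose and 0 fell, against 29.1%, 15.8% upward and 13.3% downward. Notum, Sp5, Nkd1, Axin2 and Lef1 were called in both genotypes, and Tcf7 and Znrf3 in WT cells, and the difference between genotypes in this effect was called for 0 of 10 genes (0.0159% of all genes, 1 of the 10 and 711 of all genes at an unadjusted p under 0.05, 22 genes of the table by DESeq2 and 2 by limma).

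Axin2 was at 85.8 and 41.3 TPM in WT cells on day 3, against 9.03 and 9.62 TPM in WT primed cells (log2 fold change 2.53 ± 0.470, adjusted p = 0.002424). In JunKO cells it was at 105 and 57.8 TPM, against 10.4 and 11.4 TPM (log2 fold change 2.73 ± 0.469, adjusted p = 0.001789). Nkd1 was at 38.1 and 37.4 TPM in WT cells on day 3, against 4.72 and 2.54 TPM (log2 fold change 3.34 ± 0.683, adjusted p = 0.004084). It was thus higher in both day 3 libraries, as it was in JunKO cells, with 79.8 and 44.2 TPM on day 3 against 5.04 and 3.82 TPM in JunKO primed cells (log2 fold change 3.77 ± 0.655, adjusted p = 0.001886).

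Notum was at 90.3 and 70.5 TPM in WT cells on day 3, against 1.08 and 0.82 TPM in WT primed cells. The primed libraries held 3 Notum counts between them, which gives a ratio of 126 with a 95% interval of 42.6 to 611 for counting error (adjusted p = 0.0001364, edgeR). In JunKO cells Notum was at 49.2 and 48.0 TPM, against 2.01 and 0.87 TPM (log2 fold change 5.46 ± 0.755, adjusted p = 0.000509). The JunKO day 3 libraries were both below the WT ones. Sp5 was at 113 and 89.1 TPM in WT cells on day 3, against 3.89 and 5.95 TPM (log2 fold change 4.29 ± 0.697, adjusted p = 0.001083), and at 149 and 78.6 TPM in JunKO cells, against 2.84 and 4.07 TPM (log2 fold change 5.01 ± 0.736, adjusted p = 0.0007326). Both genotypes held overlapping Sp5 levels on day 3.

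Lef1 rose by 0.96 ± 0.173 on the log2 scale in WT cells (adjusted p = 0.002067), with 39.3 and 36.4 TPM on day 3 against 17.3 and 20.9 TPM. In JunKO cells its difference was 1.21 ± 0.174 (adjusted p = 0.000641), with 42.3 and 37.4 TPM against 12.8 and 23.3 TPM. Tcf7 was at 165 and 157 TPM in WT cells on day 3, against 74.5 and 61.7 TPM (log2 fold change 1.16 ± 0.188, adjusted p = 0.00102). In JunKO cells Tcf7 was at 102 and 112 TPM, against 72.0 and 70.5 TPM, and just missed the threshold (log2 fold change 0.54, adjusted p = 0.05228). Znrf3 was at 14.2 and 15.6 TPM in WT cells on day 3, against 11.5 and 9.88 TPM (log2 fold change 0.64 ± 0.198, adjusted p = 0.02984), and at 12.4 and 11.7 TPM in JunKO cells, against 8.23 and 8.75 TPM, which was not called. Rnf43, Lgr5 and Dkk1 were called in neither genotype. Markers moved with this change. In JunKO cells the primed markers summed to 60.4 and 74.6 TPM on day 3, against 733 and 969 TPM in primed cells, the shared markers to 277 and 481 TPM, against 1487 and 1902 TPM, and the naive markers to 534 and 996 TPM, against 289 and 291 TPM. In WT cells the primed markers summed to 72.1 and 75.2 TPM, against 822 and 902 TPM, the shared markers to 87.2 and 152 TPM, against 1688 and 1999 TPM, and the naive markers to 69.2 and 193 TPM, against 364 and 244 TPM. JunKO replicate 1 in iCD1, the higher library for Axin2, Sp5 and Nkd1, held 596.5 TPM of primitive streak markers, against 127 TPM in replicate 2. The part of these markers in the result was not tested. These calls depended on the primed libraries, of which there was 1 per line: leaving out either the WT iEpiSC or the WT kiEpiSC library gave 2 calls in place of 7, and in JunKO cells 3 genes were called without the iEpiSC and 1 without the kiEpiSC library. Calls over all genes fell as well, to 1358 and 1362 in WT cells in place of 4052, and to 992 and 918 in JunKO cells in place of 3668.

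JunKO cells were then set against WT cells in each condition, and the set gave no call in any. In primed cells 0 of 10 genes were called (0.357% of all genes by edgeR, 1 of 10 and 1037 of all 12613 at an unadjusted p under 0.05, and 0 of 10 by DESeq2). In iCD1 on day 3 the count was again 0 (1.7% of all genes, 2 of 10 and 1648 of all genes at an unadjusted p under 0.05, and 0 of 10 by DESeq2). Lgr5 was at 0.46 and 1.12 TPM in JunKO cells in iCD1, against 3.08 and 2.17 TPM in WT cells (log2 fold change -2.003, adjusted p = 0.1261). Tcf7 was at 102 and 112 TPM, against 165 and 157 TPM (log2 fold change -0.58, adjusted p = 0.17). Neither pair of groups overlapped, and neither difference passed. How many of all genes lay apart in this way was not counted.

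With JNKi on day 3 the count was also 0 of 10 (0.92% of all genes by edgeR, 5 of 10 and 2085 of all genes at an unadjusted p under 0.05, and 0 of 10 by DESeq2). Dkk1 was at 4.45 and 14.3 TPM in JunKO cells with JNKi against 1.08 and 0.42 TPM in WT cells with JNKi (log2 fold change 3.57 ± 0.744). In the c-Jun experiment Dkk1 exceeded 2.61 CPM only in these 2 JunKO libraries. It thus passed the count filter only through the group where it is high, and its tests there are no support for a difference. The lower JunKO library was still above both WT libraries. Notum was at 41.6 and 12.7 TPM, against 78.9 and 84.6 TPM (log2 fold change -1.42, adjusted p = 0.136). Lef1 was at 32.7 and 31.3 TPM, against 51.9 and 47.4 TPM (log2 fold change -0.64, adjusted p = 0.08548). Tcf7 was at 79.9 and 58.8 TPM, against 89.5 and 127 TPM (log2 fold change -0.69, adjusted p = 0.1062), and Znrf3 at 10.5 and 9.03 TPM, against 13.9 and 14.9 TPM (log2 fold change -0.52, adjusted p = 0.2171). In these genes no JunKO library overlapped a WT one. The same held of Axin2, at 99.3 and 50.4 TPM against 102 and 99.7 TPM. Lgr5 was apart in the upward direction, at 6.23 and 3.13 TPM against 2.45 and 2.9 TPM, and neither was called. With 2 libraries on each side, such gaps often arise without any difference, and their share over all genes was not counted.

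The JunKO libraries with JNKi differed strongly between themselves. Replicate 1 was at 88.6 TPM and replicate 2 at 19.1 TPM for Nkd1, and at 156 and 37.0 TPM for Sp5, against 57.0 and 62.0 TPM (Nkd1) and 118 and 128 TPM (Sp5) in WT cells with JNKi. Axin2 was at 99.3 and 50.4 TPM, against 102 and 99.7 TPM. For Nkd1 and Sp5 replicate 1 lay above and replicate 2 below both WT libraries, and for Axin2 both lay below them. Their primitive streak markers summed to 1084 and 494 TPM, against 420.3 and 359 TPM in WT cells with JNKi, and their naive markers to 1616 and 1195 TPM, against 576 and 653 TPM. Replicate 2 further stood apart in its primed markers, at 78.4 TPM in replicate 1 and 358 TPM in replicate 2, against 96.8 and 101 TPM in WT cells. The 4 neural ectoderm markers summed to 8.76 and 85.9 TPM, against 20.2 and 18.5 TPM, and the 5 primitive endoderm markers to 17.8 and 68.4 TPM, against 12.4 and 8.37 TPM. The part of any of these markers in the values was not tested. Without JunKO replicate 1, the difference with JNKi on the log2 scale was -2.72 for Notum, -1.73 for Nkd1, -1.82 for Sp5 and -0.97 for Tcf7. For Lgr5 it was 0.31. With replicate 1 left out, the single remaining library is taken to vary like the other groups.

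Addition of JNKi within a genotype gave 0 of 10 calls in WT cells (0.484% of all genes by edgeR, 1 of 10 and 1752 of all genes at an unadjusted p under 0.05) and 0 of 10 in JunKO cells (0.0476%, 4 of 10 and 1585 of all genes at an unadjusted p under 0.05). Dkk1 was at 4.45 and 14.3 TPM in JunKO cells with JNKi, against 0.5 and 0.88 TPM in JunKO cells in iCD1 alone (log2 fold change 3.58, not called). Here too Dkk1 had passed the count filter only through the JunKO libraries with JNKi. Lgr5 was at 6.23 and 3.13 TPM with JNKi, against 0.46 and 1.12 TPM without it (log2 fold change 2.48, adjusted p = 0.1411). In WT cells Dkk1 was at 1.08 and 0.42 TPM with JNKi, against 0.27 and 0.51 TPM, and Lgr5 at 2.45 and 2.9 TPM, against 3.08 and 2.17 TPM. Tcf7 was lower with JNKi in WT cells, at 89.5 and 127 TPM against 165 and 157 TPM (log2 fold change -0.56, adjusted p = 0.2102, edgeR). In JunKO cells Tcf7 was at 79.9 and 58.8 TPM, against 102 and 112 TPM (log2 fold change -0.66, adjusted p = 0.1998). Lef1 there was at 32.7 and 31.3 TPM, against 42.3 and 37.4 TPM (log2 fold change -0.41, adjusted p = 0.3306). Tested directly, the JunKO effect with JNKi minus that in iCD1 was called for 0 of 10 genes (0% of all genes, 2 of 10 and 727 of all genes at an unadjusted p under 0.05, and 1 gene of the table by DESeq2). Without JunKO replicate 1 with JNKi, the log2 difference of JNKi against iCD1 in JunKO cells was -1.90 for Notum, -1.82 for Nkd1, -1.73 for Sp5 and -0.95 for Tcf7. For Lgr5 it was 2.14. Without the same library the JunKO effect with JNKi minus that in iCD1 was -2.45 for Nkd1, -2 for Notum, -1.99 for Sp5 and 2.32 for Lgr5. All values without replicate 1 rest on replicate 2 as the only JunKO library with JNKi. That library stood apart in its primed, neural ectoderm and primitive endoderm markers.

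**Figure D4:**
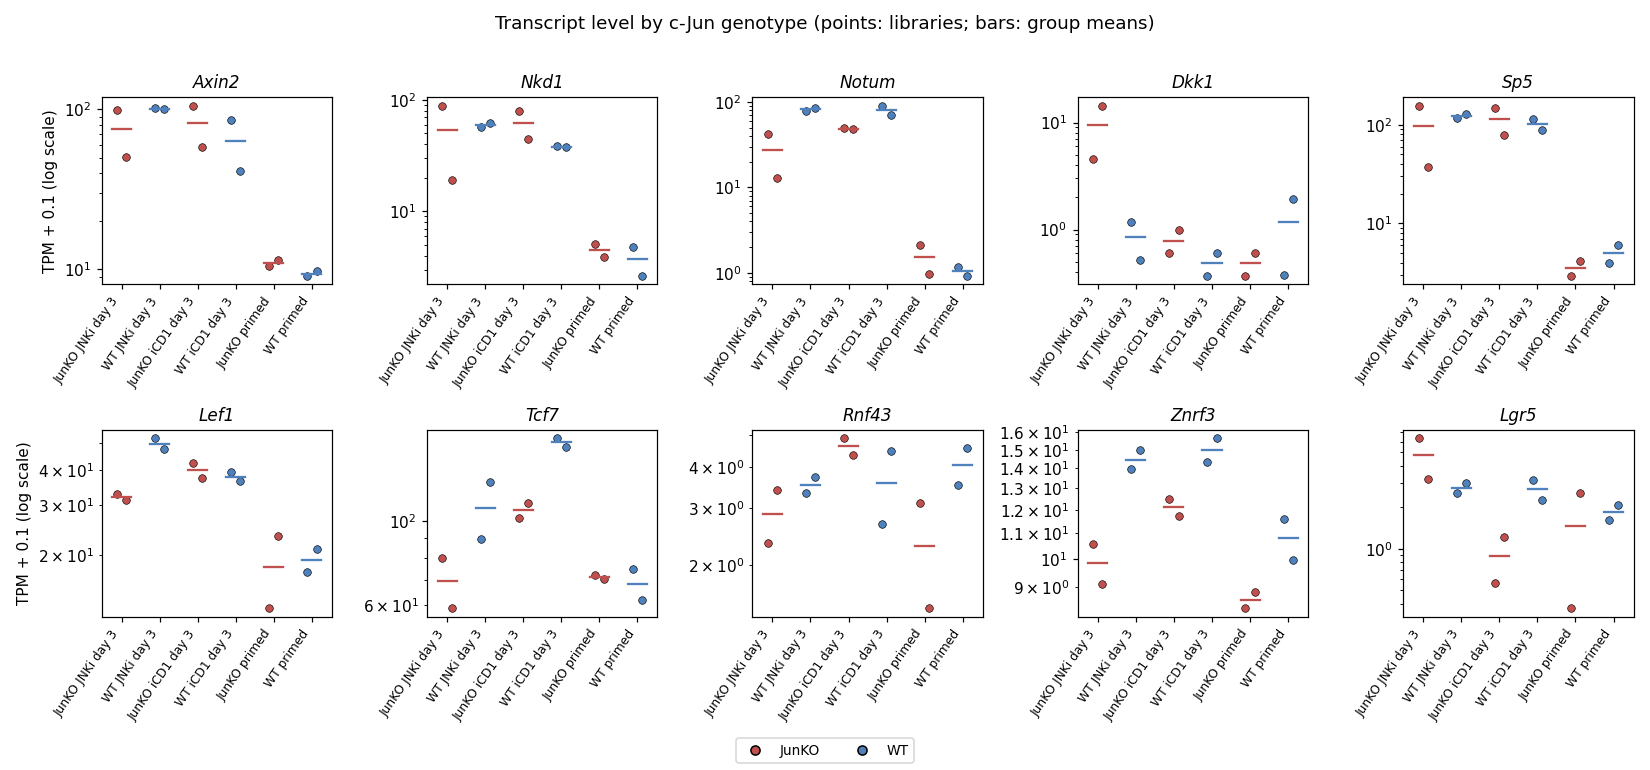
Level of each gene (TPM + 0.1, log axis, scaled per panel) in JunKO (red) and WT (blue) cells with JNKi on day 3, in iCD1 on day 3 and in the primed state (1 iEpiSC and 1 kiEpiSC library). Points are libraries and bars are group means. Dkk1 is at 4.45 and 14.3 TPM in JunKO cells with JNKi and at or below 1.85 TPM in all other groups. Over both media on day 3, Notum lies between 12.7 and 49.2 TPM in JunKO cells and between 70.5 and 90.3 TPM in WT cells. The genotypes were compared within each medium only, and Notum was called in neither.

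WT primed EpiSC-like cells against EpiSCs gave 0 of 10 calls, where 1.83% of 15458 genes were called (edgeR, 1 of 10 and 2081 of all genes at an unadjusted p under 0.05, and 0 of 10 by DESeq2). Axin2 was at 9.03 and 9.62 TPM in the EpiSC-like cells, within the range of the 4 EpiSC libraries. The same held of Sp5, at 3.89 and 5.95 TPM, and Nkd1 was at 4.72 and 2.54 TPM, both below the lowest EpiSC library. All of these comparisons draw on shared libraries and so are not independent.

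Over all 18 groups the mean level of Axin2 ran from low to high through kEpiSC (6.12 TPM), the 4 single libraries of EpiSC-like cells (9.03 to 11.4 TPM), EpiSC (19.5 ± 17.1 TPM, SD, n = 4), kiPSC (25.2 ± 20.3 TPM, n = 2) and ESC (54.98 ± 45.3 TPM, n = 5) to the cells in iCD1. There it ran between 63.6 TPM in WT cells on day 3 and 161 ± 12.3 TPM (n = 2) in kEpiSC-derived cells on day 1. Neighbours in this order from EpiSC up to ESC overlap in their libraries, as do those among the day 3 groups. The lowest group mean in iCD1 was above the mean of every primed or naive group, though single ESC libraries reached 106 TPM.

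As a description across the 18 group means of log2(TPM + 1), with no test, Axin2 was most like Sp5 among 13211 genes (Pearson's r 0.976). Srcap (0.974), Mex3b (0.967) and Cdx2 (0.966) were also among the genes most like it. Within the set, r with Axin2 was 0.864 for Nkd1, 0.867 for Notum, 0.860 for Znrf3, 0.317 for Dkk1 and 0.025 for Lgr5. Group means share libraries' depth and several groups share a line, so these are not independent points. Cdx2, a homeobox gene, shows the course plainly, since it was at 274 and 306 TPM on day 1, against 0.26 TPM at most in kEpiSCs.

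The rest of the pathway was followed in 4 other lists, with genes sorted by role. On day 1 against kEpiSCs, 9 of 13 other genes known as WNT targets rose and 2 fell, with a median log2 fold change of 2.99 where the median of all genes was 0. Of all genes tested, 23.2% rose and 23.1% fell. Cdx1, a homeobox gene of the posterior body, was at 219.9 to 220.2 TPM on day 1, against 0 to 0.14 TPM in kEpiSCs, and Msgn1, a factor of presomitic mesoderm, at 284 to 298 TPM, against 0 to 0.27 TPM. This list shares T, Tbx6 and Msgn1 with the primitive streak markers. Of 17 secreted inhibitors and their co-receptors 8 rose and 3 fell. Dkk4, which like Dkk1 blocks LRP receptors, was at 4.43 to 6.97 TPM on day 1 and listed at 0 in both kEpiSC libraries. Cer1, a secreted inhibitor that binds Nodal and is also among the primed markers used here, fell, with 0.13 and 0.14 TPM on day 1 against 15.9 and 30.1 TPM in kEpiSCs (adjusted p = 3.676e-07). Its levels rest on very few reads on day 1. Of 22 receptors and cytoplasmic components 7 rose and 8 fell, and of 10 nuclear components 5 rose and 2 fell, among them the co-repressor Tle2 (log2 fold change 2.07 ± 0.524, adjusted p = 0.004433).

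From day 1 to day 3 the WNT targets turned, with 7 of 13 lower and 2 higher (median -0.81), against 14.6% and 13.6% of all genes. T was at 157 and 180 TPM on day 3 and Msgn1 at 11.97 and 13.6 TPM. Over the same days Wls, the carrier that WNT ligands need for secretion, rose by 1.33 ± 0.243 on the log2 scale (adjusted p = 0.0006882), and Draxin, a secreted inhibitor, by 3.18 ± 0.364 (adjusted p = 1.034e-05). Of the 17 secreted inhibitors and co-receptors 7 rose and 5 fell. The largest called change among them was the fall of Dkk4 (log2 fold change -7.85 ± 1.443, adjusted p = 0.001068, edgeR). In kiPSCs against day 3 cells 10 of 13 targets were lower and 0 were higher (median -3.39), Wls among the other lists being lower too (log2 fold change -3.06 ± 0.271, adjusted p = 1.293e-07). Of all genes, 28.6% were lower and 29.3% higher. With JNKi the 4 lists gave 0 calls on each of the 3 days, where at most 0.00672% of all genes were called.

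In ESCs against EpiSCs 3 of 11 targets were higher and 4 lower, against 27.1% and 23.8% of all genes tested. These counts are near the shares of all genes. Cdx1 was at 29.6 to 133 TPM in ESCs, against 0 to 0.48 TPM in EpiSCs, whereas T was at 0.21 to 9.39 TPM, against 19.4 to 764 TPM. In WT cells on day 3 against WT primed cells 8 of 11 targets rose and 1 fell (median 2.81), and in JunKO cells 7 rose and 1 fell (median 2.89). Of all genes, 16.1% rose and 16.1% fell in WT cells, and 15.8% rose and 13.3% fell in JunKO cells. Sp8, a close relative of Sp5, was at 23.9 and 27.5 TPM in WT cells on day 3, against 0.29 and 0.37 TPM in WT primed cells, and at 21.1 and 30.8 TPM in JunKO cells, against 1.14 and 0.53 TPM. Wls was likewise higher on day 3 in both genotypes (log2 fold change 2.51 ± 0.200 in WT cells and 2.80 ± 0.201 in JunKO cells, adjusted p = 1.569e-05 and 1.166e-05). Between genotypes the 4 lists gave a single call, the secreted WNT antagonist Sfrp1 with JNKi, at 30.8 and 165 TPM in JunKO cells with JNKi, against 8.58 and 11.9 TPM in WT cells with JNKi (log2 fold change 3.17 ± 0.593, adjusted p = 0.04254). In that comparison 0.92% of all genes were called.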

How the data were processed

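Per the labels and the study's methods, RNA was prepared with TRIzol, sequenced on a NextSeq instrument and quantified by RSEM with bowtie2 on mm10. For these tools no version was found in the labels or the methods. The labels and the methods name different library kits. The deposited tables gave, per gene and library, expected counts and TPM (used) and FPKM (not used), all made by the authors, with no pooling of libraries. Of 29267 genes 28756 had a symbol.

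Expected counts were rounded to whole numbers and tested with edgeR 4.0.16 in R 4.3.3 (TMM scaling, filterByExpr with a minimum count of 10, glmQLFit and glmQLFTest, Benjamini-Hochberg adjustment over all genes tested, threshold 0.05). Separate fits covered 13 libraries of established lines (13923 genes), 17 of the kEpiSC time course (14892 genes) and 12 of the c-Jun experiment (12613 genes, with a term for the primed line). A fit over all 38 (15458 genes) gave the comparison of EpiSC-like cells with EpiSCs. The code was tested on simulated data with known fold changes. TPM served for levels and for correlations of log2(TPM + 1). Libraries held 2.165 M to 15.945 M counts, and counting intervals are exact and cover counting error only.

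Alternatives were DESeq2 1.42.0, limma 3.58.1, other filters and scaling, a replicate block, all libraries in 1 fit and leaving out each library. Genes of the 4 other lists were named as the up to 3 largest called changes per list and comparison, of which part are given, and the text also names other genes on which a sentence turns. Gene likeness to Axin2 covered genes of at least 5 TPM in some group, and 1 gene among the most alike is not reported here. The 10 genes and the lists are lists of names, with no threshold on a measured value, and were chosen with earlier results of these data known.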

Additional observations from a re-analysis of the deposited data

Results flagged for a closer look

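In 4 of the 20 sets made of 1 of the 10 genes in ESCs or EpiSCs, 1 library lay apart from the others by Dixon's criterion. Chance gives about 1 in 20 such sets, so 1 was to be expected. Axin2 was at 45.0 TPM and Sp5 at 45.5 TPM in EpiSC replicate 1, above the other 3 EpiSC libraries of each gene. The 7 primitive streak markers summed to 1032 TPM in that library. Lgr5 was at 0.88 TPM in ESC replicate 1, where the other ESC libraries had at most 0.22 TPM, but that value rests on 2 counts, and in CPM it lay at 0.461, below the 0.561 of replicate 4. Znrf3 was at 5.9 TPM in EpiSC replicate 3, below the 8.32 to 8.53 TPM of the other EpiSC libraries.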

How the results depend on the processing

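Counts of the 10 genes called stayed within 1.5 times the count reported in 95 of 105 cases with a library left out and in 136 of 144 cases under other settings. Of 42 calls of single genes, 17 held under every alternative run, 25 were lost under at least 1 and 0 changed sign. With ESC replicate 5 as the only ESC library, Axin2 (-0.75) and Sp5 (-0.66), neither called, changed sign against EpiSCs. The fit over all 38 libraries called 1 gene in place of 7 for day 3 against day 1. Without the filter on low counts, JunKO against WT cells gave 4 in iCD1 and 5 with JNKi, JNKi against iCD1 gave 2 in WT and 3 in JunKO cells, and the JunKO effect with JNKi minus that in iCD1 gave 1, each in place of 0. Calls over all genes rose too in these fits, to 822, 1138, 792, 717 and 221 of 20864. The cause was not tested.

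With libraries left out, the counts ran between 4 and 5 for day 3 against day 1, between 0 and 5 for JunKO against WT with JNKi, between 0 and 5 for JNKi against iCD1 in JunKO cells, between 2 and 6 for WT and between 1 and 5 for JunKO day 3 against primed cells, and between 0 and 3 for the JunKO effect with JNKi minus that in iCD1. The high values of the 3 counts that start at 0 all came without JunKO replicate 1 with JNKi, which leaves replicate 2 as the only library of its group. Fewer libraries also leave fewer residual degrees of freedom.

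Replicate numbers are shared between groups but nothing says that they pair libraries, and most comparisons hold fewer than 3 pairs. Same-numbered deviations correlated at 0.25 to 0.48 between JNKi and no JNKi in the kEpiSC series, at 0.21 (WT) and 0.09 (JunKO) in kiEpiSCs, at 0.40 between JunKO and WT in iCD1, at 0.11 between them with JNKi, and at -0.11 to 0.12 between ESCs and EpiSCs. With the replicate block, 2 genes were called for JunKO against WT with JNKi and 1 for JNKi against iCD1 in JunKO cells, each in place of 0, with 537 and 162 of all 12613 genes.

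Depth limits Dkk1, Lgr5 and, in primed cells, Notum, which rest on few counts. It also limits Rnf43, with 7 to 12 counts per EpiSC library and 13 to 27 per ESC library. In the c-Jun experiment no library held more than 28 Rnf43 counts. Nkd1 held 9 to 21 counts per ESC library.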
